A study of Homo sapiens with 3 samples.

Results

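The 54 human genes described here encode proteins that recognise, license and fire DNA replication origins, or that build and follow the replication fork. They were taken by gene symbol from a list of known replication factors. All 54 had a row among the 17329 genes of the table. All 54 also passed the floor used here, a mean of 50 or more normalized counts across the libraries, as did 12292 genes in all. Polyadenylated RNA was sequenced from Jurkat cells, an established human T-lineage leukaemia line, after 48 hours in 3 media. The oxamate+lactate culture had sodium oxamate at 50 mM together with L-sodium lactate at 10 mM. The oxamate culture had 50 mM sodium oxamate alone, an inhibitor of lactate dehydrogenase, and the control culture had standard medium. Each condition had 1 library of this 1 cell line, so the differences below come without a replicate check, a standard error or a p-value.

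In G1 the origin recognition complex binds DNA, and CDC6 and CDT1 load the MCM helicase onto it as an inactive double ring. At the start of S phase kinases drive CDC45 and the GINS complex onto each ring, which then unwinds DNA ahead of the polymerases, while geminin blocks renewed loading. Many of these genes are textbook targets of E2F transcription factors, which RB-family proteins hold in check until cells enter S phase.

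The deposited values are normalized read counts rounded to whole numbers. They summed over genes to 8171633 in oxamate+lactate, 8821115 in oxamate and 8220199 in control. The number of reads per library is unknown, and so is the precision that counting gives. For 18 ERCC spike-in RNAs whose mean was 100 or more, the SD of the log2 ratios was 0.13 for oxamate against control, 0.11 for oxamate+lactate against oxamate and 0.19 for oxamate+lactate against control. The spike-in was added to extracted RNA, so this SD leaves out the variation among cultures. The median of these spike-in ratios was 0.00 for oxamate against control. It was -0.08 for oxamate+lactate against oxamate and -0.08 for oxamate+lactate against control. Of 8 T-lineage markers, 7 lay between 464 and 4812 in every library, while CD28 had 20 in oxamate+lactate, 66 in oxamate and 3 in control. Of 12 markers of other cell types, 5 were analysed here and lay between 5 and 202.

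Replication promoters were rich in E2F-type letters. The 4 words searched, on both strands, were TTTCCCGC, TTTCGCGC, TTTGCCGC and TTTGGCGC, in RefSeq windows of GRCh38.p14 from 250 bases before to 50 bases after each gene start. Of the 54 genes, 48 had a window, and 23 of these, 47.9%, held at least 1 of the words. The same held for 3.99% of all 27305 genes with a window and for 6.93% of the 8427 such genes over the floor. TTTCCCGC was found for 12 of the 48 genes and 1.98% of all genes, TTTGGCGC for 8 and 0.795%, TTTCGCGC for 7 and 0.63%, and TTTGCCGC for 0 and 0.725%. Matches overlapped each other in 3 windows, those of TIPIN, MCM2 and MCM6. The windows shown belong to the 2 lowest and 2 highest members in oxamate against control among those with a match wholly before the start, and to MCM6, which had the most such matches. Each line holds the 250 bases before the gene start, 5′ to 3′ on the gene's strand, with the matches in capitals. The TIPIN window is chr15:66356686-66356935 (minus strand), that of ORC3 chr6:87589885-87590134 (plus strand) and that of POLA2 chr11:65261712-65261961 (plus strand). That of UHRF1 is chr19:4909251-4909500 (plus strand) and that of MCM6 chr2:135876444-135876693 (minus strand).
TIPIN: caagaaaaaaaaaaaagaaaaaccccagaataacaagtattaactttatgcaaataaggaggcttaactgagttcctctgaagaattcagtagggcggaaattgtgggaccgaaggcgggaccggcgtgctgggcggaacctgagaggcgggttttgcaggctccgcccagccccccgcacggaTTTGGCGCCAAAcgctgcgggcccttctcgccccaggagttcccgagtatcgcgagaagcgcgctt
ORC3: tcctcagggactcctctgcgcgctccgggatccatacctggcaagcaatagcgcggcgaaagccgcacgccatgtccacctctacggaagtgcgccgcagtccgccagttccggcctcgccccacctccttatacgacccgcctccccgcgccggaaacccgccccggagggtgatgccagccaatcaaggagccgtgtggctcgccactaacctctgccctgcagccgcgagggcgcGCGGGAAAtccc
POLA2: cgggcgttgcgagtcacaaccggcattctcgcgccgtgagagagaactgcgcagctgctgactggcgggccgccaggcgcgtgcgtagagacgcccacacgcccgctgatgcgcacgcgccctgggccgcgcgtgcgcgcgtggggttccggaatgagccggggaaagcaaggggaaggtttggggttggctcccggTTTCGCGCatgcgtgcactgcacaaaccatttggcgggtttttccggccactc
UHRF1: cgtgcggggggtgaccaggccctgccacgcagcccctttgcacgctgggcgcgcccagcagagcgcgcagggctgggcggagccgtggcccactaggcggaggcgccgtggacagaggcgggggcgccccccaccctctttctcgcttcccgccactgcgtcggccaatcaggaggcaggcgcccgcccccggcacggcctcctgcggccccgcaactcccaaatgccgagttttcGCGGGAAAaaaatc
MCM6: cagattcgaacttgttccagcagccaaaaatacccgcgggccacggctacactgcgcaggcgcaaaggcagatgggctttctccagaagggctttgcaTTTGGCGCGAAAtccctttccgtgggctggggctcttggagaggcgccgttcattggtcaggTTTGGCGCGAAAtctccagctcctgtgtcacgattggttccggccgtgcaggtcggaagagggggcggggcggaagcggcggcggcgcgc
By this choice all of these windows held a match, with TIPIN and ORC3 at the low end and POLA2 and UHRF1 at the high end. MCM6 was lower in the oxamate library than in control. The median log2 ratio of oxamate against control was -0.07 for the 23 genes with a match and -0.01 for the 25 without. For oxamate+lactate against oxamate the median was -0.13 with a match and -0.07 without, and for oxamate+lactate against control it was -0.13 with and -0.11 without. A match describes letters in a window and is no evidence of binding.

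Replication genes stood close to their control level in the oxamate library, and slightly lower than most genes. The comparison of oxamate with control sets the drug-treated library beside the untreated one, and lactate was not among the values used here. Ratios are log2((value + 1)/(value + 1)). The median log2 ratio of the 54 genes was -0.05, with an SD of 0.23 between genes, against a median of 0.08 and an SD of 0.38 for all genes over the floor. Of the 54, 37 lay below the median of all genes, where 50.0% of all genes lie by construction. At a size of 1.2-fold, 9 genes were lower (16.7%, against 15.1% of all genes) and 5 higher (9.26%, against 28.8%). As deposited, the share of lower members was thus near that of all genes, and the share of higher members was below it. At a floor of 200, which 53 members passed, 15.1% were lower (against 11.1% of all genes) and 9.43% higher (against 28.7%). Centred on the median of all genes, 17 members were lower (31.5%, against 20.9% of all genes) and 0 higher (against 21.0%). With columns scaled to equal sums 18 were lower (33.3%, against 22.9% of all genes) and 0 higher (against 19.2%). Under both of these the share of lower members was above that of all genes. As deposited none of the 54 reached 1.5-fold, a size reached by 3.98% of all genes downward and 7.48% upward. At a floor of 200, 161 of 8274 genes reached it downward and 493 upward. TIPIN reached 1.5-fold with centring (-0.62) and with equal sums (-0.64). In bulk RNA, fewer cells in S phase and less RNA per cell cannot be told apart.

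With lactate added to oxamate, the median of the replication genes lay close to that of all genes as deposited. The median log2 ratio of the 54 genes was -0.10 (SD 0.11), against -0.09 (SD 0.19) for all genes. Below the median of all genes lay 30 of the 54. At 1.2-fold, 2 members were lower, TICRR and MCM7, against 15.4% of all genes, and 0 were higher, against 3.86%. None reached 1.5-fold, a size that 0.903% of all genes reached downward and 0.252% upward. The member median changed sign, to 0.01, with columns scaled to equal sums, which moved the median of all genes to 0.02. With equal ERCC sums the member median was -0.04, against -0.02 for all genes. Without the trend of the ratios on the GC content and length of transcripts, described further on, it was -0.13, against -0.09. Below the median of all genes then lay 35 of the 54.

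Against control, the oxamate+lactate library had lower values for most replication genes. The median log2 ratio was -0.13 (SD 0.17), against -0.01 (SD 0.31) for all genes, and 44 of the 54 lay below the median of all genes. At 1.2-fold 15 were lower (27.8%, against 16.7% of all genes) and 0 were higher (against 15.4%). With equal ERCC sums 9 were lower, 16.7% against 11.8% of all genes under that scaling. The medians were then -0.07 for the members and 0.06 for all genes. The role medians of polymerases delta and epsilon (0.02) and of chromatin replication (0.05) were then positive, and those of the other roles stayed negative. TIPIN alone passed 1.5-fold as deposited (-0.61), a size that 3.07% of all genes reached downward and 2.99% upward. It fell short of that size with equal ERCC sums (-0.55) and without the trend of the ratios on the GC content and length of transcripts, described further on (-0.54). The 3 comparisons share libraries in pairs, so their counts are not independent of each other. Summed over the 54 genes, the values came to 59217 in oxamate+lactate, 65384 in oxamate and 64131 in control. As a share of all genes that is 0.725% in oxamate+lactate, 0.741% in oxamate and 0.780% in control.

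**Figure D1:**
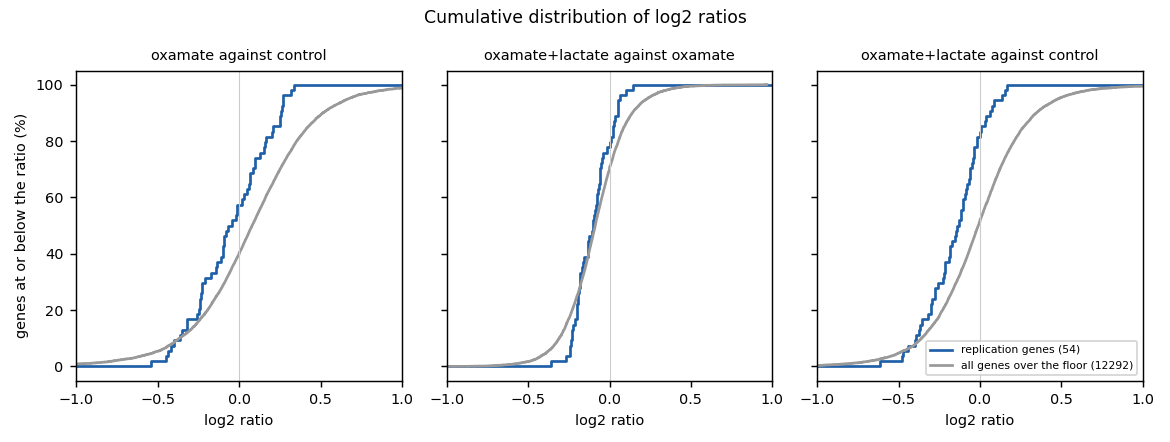
Cumulative share of genes (percent) at or below each log2 ratio, for the 54 replication genes (blue) and the 12292 genes over the floor (grey), in 3 comparisons of single libraries. The blue curve lies left of the grey one over most of its range for oxamate against control (median -0.05 for the members, 0.08 for all genes) and oxamate+lactate against control (-0.13 and -0.01), and close to it for oxamate+lactate against oxamate (-0.10 and -0.09).

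Among the subunits of the origin recognition complex, which marks origins on DNA, ORC5 and ORC3 were lower in both treated libraries than in control. ORC5 had 189 normalized counts in oxamate+lactate, 182 in oxamate and 249 in control. Its log2 ratio was -0.45 for oxamate against control and -0.40 for oxamate+lactate against control. ORC3 had 349 in oxamate+lactate, 372 in oxamate and 475 in control, with ratios of -0.35 for oxamate and -0.44 for oxamate+lactate against control. Without the trend on GC content and length the ORC3 ratio for oxamate was -0.19. For these subunits the treated libraries lay close to each other and below control. ORC6, the smallest subunit, went the other way, with 580 in oxamate+lactate, 615 in oxamate and 517 in control (0.25 for oxamate against control). ORC1, the subunit whose level cycles in human cells, had 424 in oxamate+lactate, 472 in oxamate and 467 in control. ORC2 had 350 in oxamate+lactate, 361 in oxamate and 407 in control, slightly lower in both treated libraries. ORC4 was nearly level, with 279 in oxamate+lactate, 277 in oxamate and 295 in control. Exons of ORC4 overlap those of ACVR2A and MBD5, and strand is not recorded by the kit used.

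The licensing factors were nearly level across the libraries as deposited. CDC6, the loader ATPase, had 630 normalized counts in oxamate+lactate, 679 in oxamate and 652 in control. CDT1, its partner in loading, had 1615 in oxamate+lactate, 1677 in oxamate and 1785 in control. GMNN, which encodes the CDT1 inhibitor geminin, had 389 in oxamate+lactate, 418 in oxamate and 442 in control. The ratios of oxamate against control of these 3 genes lay between -0.09 and 0.06, within the SD of 0.13 seen for ERCC RNAs. Without the trend on GC content and length, CDT1 was at -0.27 for oxamate and for oxamate+lactate against control, past 1.2-fold.

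The MCM2 to MCM7 genes encode the ring of the replicative helicase, in which each subunit is present once, and they were among the most abundant members. MCM7 had 4504 normalized counts in oxamate+lactate, 5424 in oxamate and 4709 in control. MCM2 had 3504 in oxamate+lactate, 4024 in oxamate and 3488 in control. In both genes the oxamate library was the highest and the other libraries were close to each other. Oxamate against control was at 0.20 for MCM7 and 0.21 for MCM2 as deposited. It was 0.11 for MCM7 and 0.09 for MCM2 without the trend on GC content and length. With columns scaled to equal sums it was 0.10 for each. These lower values lie within the SD of 0.13 seen for ERCC RNAs. MCM6 had 2083 in oxamate+lactate, 2048 in oxamate and 2559 in control, and so was lower in both treated libraries (-0.30 for oxamate+lactate and -0.32 for oxamate against control, the second -0.24 without the trend on GC content and length). MCM3 had 2924 in oxamate+lactate, 3044 in oxamate and 3191 in control. MCM4 had 2824 in oxamate+lactate, 2977 in oxamate and 3185 in control, and MCM5 had 1907 in oxamate+lactate, 2135 in oxamate and 2166 in control. The ratios of oxamate against control of MCM3, MCM4 and MCM5 lay between -0.10 and -0.02. MCM7 was lower in oxamate+lactate than in oxamate (-0.27). Its exons overlap AP4M1, and 30.7% of the length of the MCM2 transcript lies over an antisense RNA, so reads of these neighbours cannot be told apart. Summed over the 6 genes, the values were 17746 in oxamate+lactate, 19652 in oxamate and 19298 in control.

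**Figure D2:**
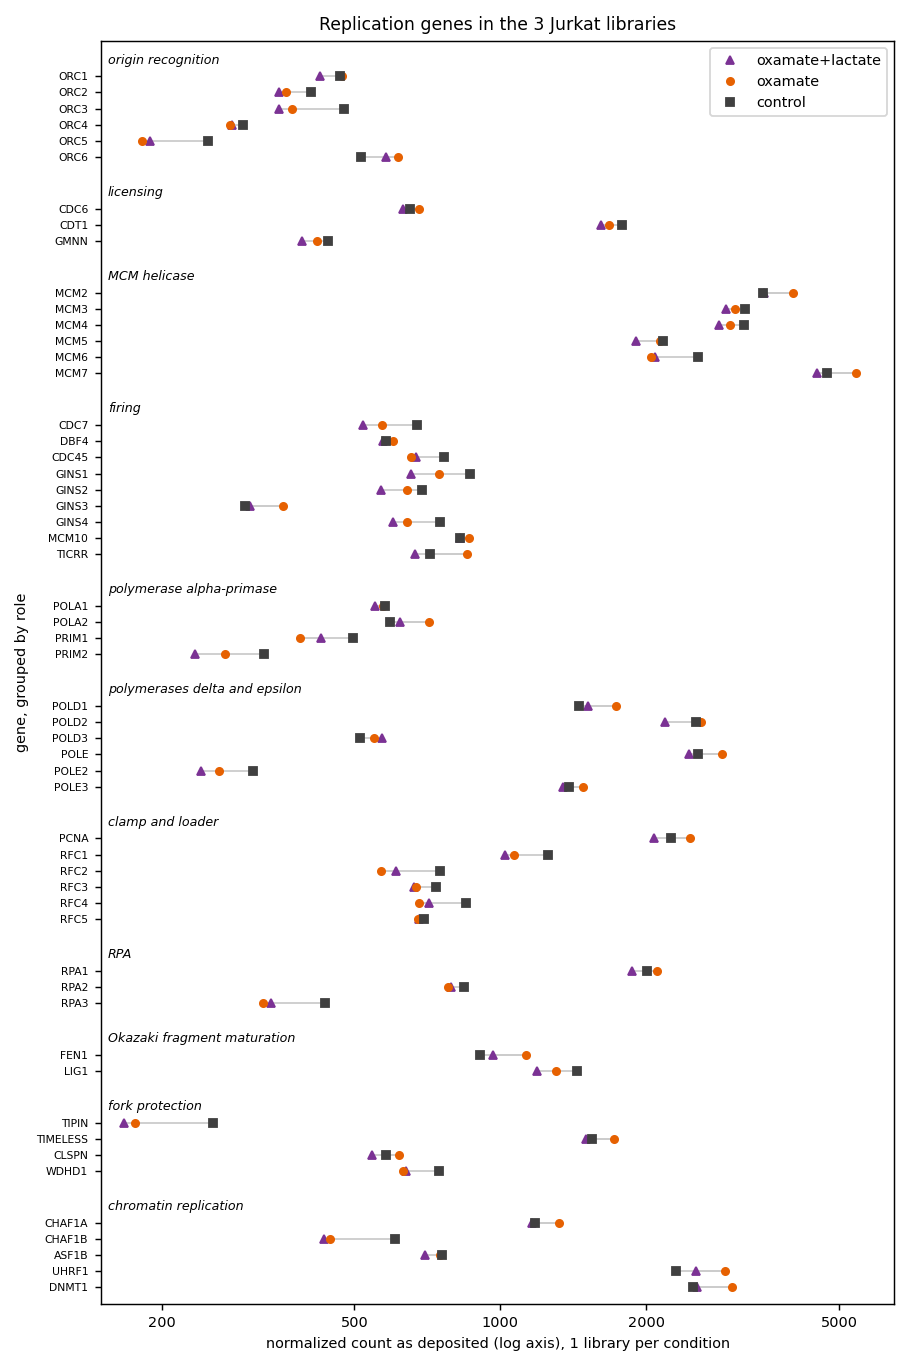
Normalized counts as deposited (log axis) of the 54 replication genes in the oxamate+lactate (triangle), oxamate (circle) and control (square) libraries, 1 library per condition, grouped by role. The values span 167 for TIPIN in oxamate+lactate to 5424 for MCM7 in oxamate, and the 3 markers of a gene lie close together on this scale.

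Among the factors that fire origins, the subunits of the GINS tetramer did not keep 1 order of libraries. GINS1 had 655 normalized counts in oxamate+lactate, 747 in oxamate and 864 in control (-0.40 for oxamate+lactate against control). GINS2 had 568 in oxamate+lactate, 643 in oxamate and 689 in control, and GINS4 had 601 in oxamate+lactate, 642 in oxamate and 751 in control. These 3 were lowest in oxamate+lactate and highest in control. GINS3, the remaining subunit, had 305 in oxamate+lactate, 357 in oxamate and 297 in control, with the highest value in oxamate (0.26 for oxamate against control). The annotation places antisense RNAs over 24.5% of the length of the GINS3 transcript and over exons of GINS4. CDC45, which joins GINS on the helicase, had 671 in oxamate+lactate, 655 in oxamate and 766 in control. CDC7, the kinase that triggers firing, had 520 in oxamate+lactate, 569 in oxamate and 673 in control (-0.37 for oxamate+lactate against control). Its activating subunit DBF4 had 573 in oxamate+lactate, 601 in oxamate and 580 in control. As deposited the kinase was thus lower in the treated libraries than in control, while its partner differed by at most 0.07 on the log2 scale. Without the trend on GC content and length, oxamate against control was at -0.09 for CDC7 and 0.18 for DBF4. Oxamate+lactate against control was then at -0.29 for CDC7 and 0.05 for DBF4. MCM10, needed to activate the helicase, had 826 in oxamate+lactate, 863 in oxamate and 825 in control. TICRR, which encodes the firing factor treslin, had 666 in oxamate+lactate, 853 in oxamate and 715 in control. Its ratio of oxamate+lactate against oxamate, -0.36, was the lowest of the 54, and its exons overlap KIF7.

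The subunits of polymerase alpha-primase, which starts each new strand with an RNA-DNA primer, differed among themselves. PRIM1, the catalytic primase subunit, had 427 normalized counts in oxamate+lactate, 386 in oxamate and 497 in control (-0.36 for oxamate against control, and -0.18 without the trend on GC content and length). PRIM2, the large primase subunit, had 234 in oxamate+lactate, 271 in oxamate and 325 in control, with the oxamate+lactate library the lowest (-0.47 against control). The catalytic polymerase subunit POLA1 was nearly level, with 551 in oxamate+lactate, 574 in oxamate and 578 in control. The accessory subunit POLA2 was highest in oxamate, with 621 in oxamate+lactate, 712 in oxamate and 591 in control (0.27 for oxamate against control, and 0.20 without that trend). PRIM1 had the highest ratio of oxamate+lactate against oxamate among the 54 genes, 0.15. Over 53.7% of the POLA2 and 26.0% of the PRIM1 transcript length, the annotation lists an overlapping coding gene on the same strand, so these values are uncertain.

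The catalytic subunits of the strand-synthesising polymerases were highest in oxamate as deposited. POLE, of the leading-strand polymerase epsilon, had 2446 normalized counts in oxamate+lactate, 2869 in oxamate and 2557 in control. POLD1, of the lagging-strand polymerase delta, had 1514 in oxamate+lactate, 1729 in oxamate and 1451 in control. Oxamate against control was at 0.17 for POLE and 0.25 for POLD1, and without the trend on GC content and length at 0.02 for POLE and 0.06 for POLD1. The second subunit of epsilon, POLE2, had 241 in oxamate+lactate, 263 in oxamate and 309 in control. For oxamate against control it went the other way from POLE and POLD1 (-0.23, and -0.12 without that trend). For oxamate+lactate against control POLE2 was at -0.36, POLE at -0.06 and POLD1 at 0.06. POLE3, a histone-fold subunit of epsilon, had 1349 in oxamate+lactate, 1480 in oxamate and 1385 in control. The accessory subunits of delta also differed from each other in their order of libraries. POLD2 had 2184 in oxamate+lactate, 2588 in oxamate and 2535 in control. POLD3 had 570 in oxamate+lactate, 549 in oxamate and 513 in control, and so was highest in oxamate+lactate. The median of these 6 genes for oxamate against control, 0.10, was close to the 0.08 of all genes. Without the trend on GC content and length it was 0.04, below the 0.09 of all genes.

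The sliding clamp and its loader differed in sign for oxamate against control as deposited. PCNA, the clamp that holds polymerases on DNA, was highest in oxamate, with 2076 normalized counts in oxamate+lactate, 2457 in oxamate and 2251 in control. Its ratio of oxamate against control was 0.13 as deposited, 0.02 with columns scaled to equal sums and 0.23 without the trend on GC content and length. For oxamate+lactate against control it was -0.12. Of the loader, replication factor C, RFC2 and RFC4 passed 1.2-fold downward for oxamate against control, as RFC1 and RFC2 did for oxamate+lactate against control. RFC2 had 609 in oxamate+lactate, 568 in oxamate and 750 in control (-0.40 for oxamate against control). RFC4 had 711 in oxamate+lactate, 681 in oxamate and 851 in control (-0.32 for oxamate against control, and -0.22 without the trend on GC content and length). RFC1, the large subunit, had 1021 in oxamate+lactate, 1065 in oxamate and 1257 in control. RFC3 had 662 in oxamate+lactate, 670 in oxamate and 735 in control. RFC5 had 678 in oxamate+lactate, 677 in oxamate and 697 in control. Without the trend on GC content and length the ratio of oxamate against control was 0.04 for RFC3 and 0.05 for RFC5, opposite in sign to their ratios as deposited. The median of the 6 clamp and loader genes was -0.19 for oxamate against control as deposited and -0.06 without that trend. PCNA has 3 named pseudogenes, and how reads shared with them were counted is not known here.

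RPA, the trimer that coats single-stranded DNA at the fork, had its smallest subunit lower in both treated libraries. RPA3 had 336 normalized counts in oxamate+lactate, 324 in oxamate and 434 in control (-0.37 for oxamate+lactate and -0.42 for oxamate against control). RPA1, the large DNA-binding subunit, had 1873 in oxamate+lactate, 2105 in oxamate and 2010 in control. RPA2 had 792 in oxamate+lactate, 779 in oxamate and 841 in control, and both lay close to control. Of the enzymes that process and join Okazaki fragments, the flap nuclease gene FEN1 was highest in oxamate, with 965 in oxamate+lactate, 1132 in oxamate and 908 in control (0.32 for oxamate against control). The DNA ligase gene LIG1 was highest in control, with 1189 in oxamate+lactate, 1304 in oxamate and 1439 in control. FEN1 exons overlap those of TMEM258 and FADS2.

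TIPIN, which pairs with TIMELESS to stabilise the fork, had the lowest ratio of the 54 genes in both comparisons with control as deposited. It had 167 normalized counts in oxamate+lactate, 176 in oxamate and 256 in control. That is 1.53-fold lower in oxamate+lactate (log2 -0.61) and 1.45-fold lower in oxamate (-0.54) than in control. Without the trend on GC content and length the TIPIN ratios were -0.54 for oxamate+lactate and -0.39 for oxamate. For oxamate against control CHAF1B (-0.44) and RFC2 (-0.42) were then lower than TIPIN. The treated libraries were close to each other and below control. Its partner TIMELESS was highest in oxamate, with 1501 in oxamate+lactate, 1717 in oxamate and 1545 in control. For TIMELESS, oxamate against control was at 0.15 as deposited, 0.05 with columns scaled to equal sums and 0.10 without the trend on GC content and length. The checkpoint mediator gene CLSPN had 544 in oxamate+lactate, 617 in oxamate and 581 in control. WDHD1, which links the helicase to polymerase alpha, had 638 in oxamate+lactate, 630 in oxamate and 747 in control, and so was lower in both treated libraries. Its ratio against control was -0.23 for oxamate+lactate and -0.25 for oxamate. Without the trend on GC content and length it was -0.15 for oxamate+lactate and -0.12 for oxamate. The annotation places the ribosomal protein pseudogene RPL9P25 over 33.2% of the TIPIN transcript length.

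Among genes that restore chromatin behind the fork, the maintenance methylation pair was higher in oxamate than in control and CHAF1B was lower. UHRF1, which recruits DNMT1 to hemimethylated DNA, had 2536 normalized counts in oxamate+lactate, 2908 in oxamate and 2305 in control. Its ratio of oxamate against control, 0.34, was the highest of the 54. DNMT1, the maintenance DNA methyltransferase, had 2548 in oxamate+lactate, 3001 in oxamate and 2493 in control (0.27 for oxamate against control). In both genes the oxamate+lactate library lay between the other two. Without the trend on GC content and length the ratio of oxamate against control was 0.26 for UHRF1 and 0.16 for DNMT1, short of 1.2-fold. CHAF1A and CHAF1B encode subunits of the histone chaperone CAF-1 and differed in direction for oxamate against control. CHAF1A had 1165 in oxamate+lactate, 1320 in oxamate and 1180 in control. Its ratio against control was 0.16 for oxamate (0.06 without the trend on GC content and length) and -0.02 for oxamate+lactate. CHAF1B had 433 in oxamate+lactate, 446 in oxamate and 605 in control, with ratios of -0.48 for oxamate+lactate and -0.44 for oxamate against control. CHAF1B shares 89 exonic bases with MORC3, which had 329 in oxamate+lactate, 333 in oxamate and 233 in control. ASF1B, a chaperone that hands histones to CAF-1, had 700 in oxamate+lactate, 751 in oxamate and 758 in control, close to level.

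**Figure D3:**
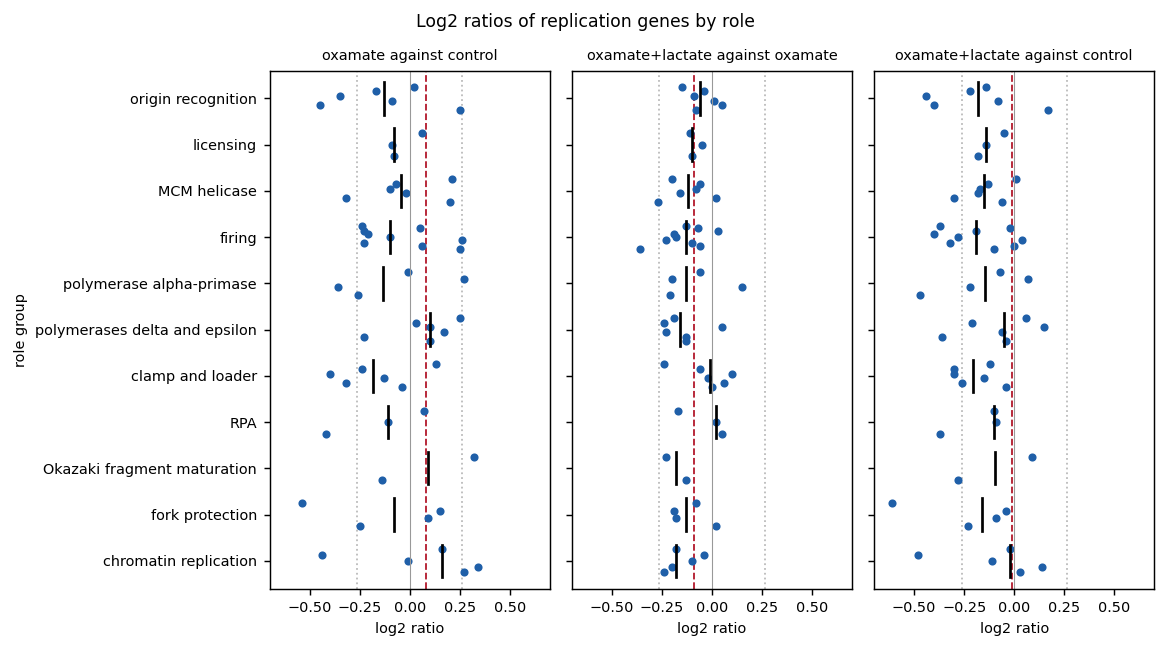
Log2 ratios of the 54 replication genes (points) by role group in 3 comparisons of single libraries, with the group median (black bar), the median of all genes over the floor (dashed line) and 1.2-fold in each direction (dotted lines). For oxamate against control the role medians as deposited run from -0.19 (clamp and loader) to 0.16 (chromatin replication).

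Levels between genes were compared as normalized counts per kilobase of the longest coding transcript, averaged over the 3 libraries. PCNA was highest at 1664 per kilobase, followed by MCM7 at 1582, POLD2 at 1129 and MCM2 at 1014. The other helicase subunits lay between 586 (MCM5) and 952 (MCM3), so the values of MCM2 to MCM7 were not equal on this scale. The transcript forms present in these cells are not known here, and the overlaps of MCM2 and MCM7 with other genes also enter. Whether the transcript levels differed was not tested. ORC4 was lowest at 42.3 per kilobase, below ORC2 at 86.4 and POLA1 at 103. PCNA exceeded 98.3% of the genes over the floor with a known length on this scale, and ORC4 exceeded 19.6% of them. With 1 library per condition the spread of these levels between cultures is unknown.

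The replication genes of GC-rich transcripts had higher ratios in oxamate against control than those of GC-poor ones. Across the 54 genes the Spearman correlation of the log2 ratio with GC content was 0.52, and across 10736 genes over the floor with a known GC content it was 0.31. These are descriptions across genes that share the same libraries. In the 27 members with a GC content of 37.7% to 46.4%, the median was -0.17 with 7 lower and 0 higher at 1.2-fold. The 3813 genes in the same range had a median of -0.01, with 19.8% lower and 16.7% higher. In the 27 members with 47.9% to 65.0%, the median was 0.03 with 2 lower and 5 higher. The 5194 genes in that range had a median of 0.17, with 11.0% lower and 37.9% higher. The member medians thus lay below those of all genes in both GC ranges. For oxamate+lactate against oxamate the correlation was -0.49 across the members and -0.23 across all genes, and for oxamate+lactate against control it was 0.36 and 0.24. With the trend on GC content and length removed, 37 of the 54 lay below the median of all genes for oxamate against control, and 6 were lower (11.1%, against 14.0% of all genes) and 3 higher (5.56%, against 26.7%) at 1.2-fold. The 6 were TIPIN, CHAF1B, RFC2, RPA3, ORC5 and CDT1, and the 3 were ORC6, GINS3 and FEN1. MCM6, RFC4, PRIM1, ORC3, UHRF1, DNMT1 and POLA2 then no longer passed 1.2-fold. The part of base composition in the differences between single members was not tested.

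**Figure D4:**
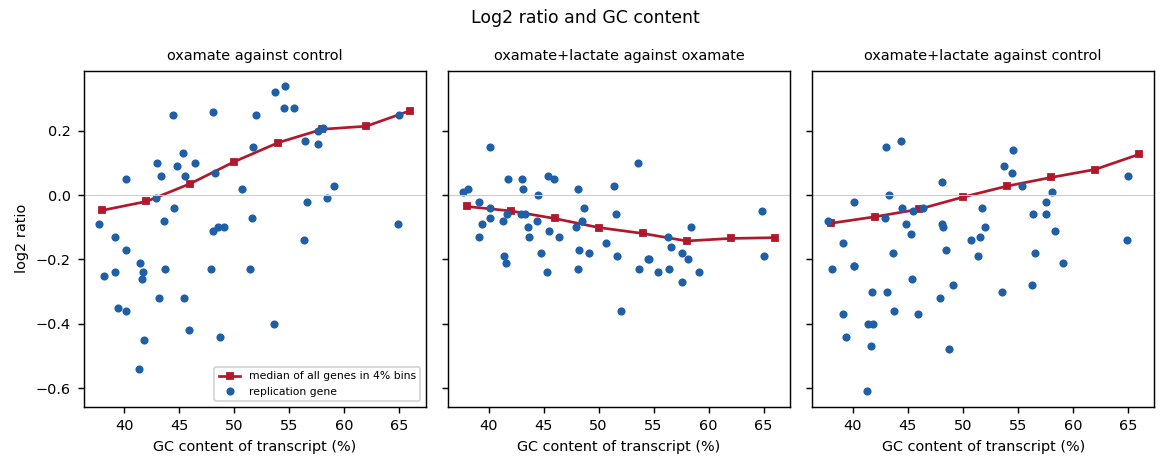
Log2 ratio against GC content of the longest coding transcript (percent) for the 54 replication genes (circles), with the median of all genes over the floor in bins of 4% (squares), in 3 comparisons of single libraries. The members slope the same way as all genes (Spearman correlation 0.52 for the members and 0.31 for all genes in oxamate against control), and most lie below the line in the comparisons with control.

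Other genes of the pathway were read from 4 further lists. All 8 genes that supply nucleotides or histone messages in S phase lay below the median of all genes in each comparison with control. DUT, which clears dUTP, had 1517 normalized counts in oxamate+lactate, 1596 in oxamate and 1924 in control (-0.34 for oxamate+lactate and -0.27 for oxamate against control). The highest ratios of oxamate against control in this list were those of the reductase subunit gene RRM1 (0.03) and the nucleoside kinase gene DCK (0.01). The list median was -0.22 for oxamate+lactate against control and -0.21 for oxamate against control. At 1.2-fold 3 of the 8 were lower in oxamate+lactate than in control (against 16.7% of all genes) and 2 in oxamate (against 15.1%), a small number of genes to set beside a share.

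Most E2F and RB regulators were on the other side of the median of all genes. Of 13 genes, 10 lay above it in each comparison with control. At 1.2-fold, 6 were higher (46.2%, against 28.8% of all genes) and 2 lower (15.4%, against 15.1%) in oxamate than in control. In oxamate+lactate 2 were higher than in control (15.4%, against 15.4% of all genes) and 2 lower (15.4%, against 16.7%). TFDP2, an E2F dimer partner, had 5155 normalized counts in oxamate+lactate, 5228 in oxamate and 3655 in control (0.52 for oxamate against control). RB1, the retinoblastoma repressor, had 2266 in oxamate+lactate, 2619 in oxamate and 1874 in control (0.48). E2F1, an activator of S phase genes, had 941 in oxamate+lactate, 1039 in oxamate and 812 in control (0.36), and in these 3 genes control was the lowest library. The lowest ratios belonged to E2F8, an atypical repressor, and RBL1, which encodes p107. E2F8 had 312 in oxamate+lactate, 330 in oxamate and 429 in control (-0.38 for oxamate against control). RBL1 had 411 in oxamate+lactate, 429 in oxamate and 560 in control (-0.38).

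Further replication factors were mixed in direction, with most below the median of all genes. Of 29, 28 were over the floor, with a median of 0.01 for oxamate against control. At 1.2-fold, 6 were lower (21.4%, against 15.1% of all genes) and 5 higher (17.9%, against 28.8%). Below the median of all genes lay 20 of the 28 for oxamate and 16 for oxamate+lactate against control. TOP1, the topoisomerase that relieves twist ahead of the fork, had 2134 normalized counts in oxamate+lactate, 2448 in oxamate and 1640 in control (0.58 for oxamate against control). LRWD1, a partner of the origin recognition complex, had 607 in oxamate+lactate, 765 in oxamate and 526 in control (0.54). At the other end were DSCC1 and CHTF8, small subunits of an alternative clamp loader. Its large subunit CHTF18 did not share their direction, with 1327 in oxamate+lactate, 1443 in oxamate and 1247 in control (0.21). DSCC1 had 324 in oxamate+lactate, 364 in oxamate and 471 in control (-0.37). CHTF8 had 828 in oxamate+lactate, 840 in oxamate and 1065 in control (-0.34). The 10 S phase checkpoint genes had a median of -0.04 for oxamate against control. Of these, 8 lay below the median of all genes for oxamate and 6 for oxamate+lactate against control. The ends of that list were the kinase genes CHEK1 (-0.22) and WEE1 (-0.16) and, at the high end, ATRIP (0.33), the partner of ATR, and the phosphatase gene CDC25A (0.09). CHEK1 had 890 in oxamate+lactate, 832 in oxamate and 970 in control. ATRIP had 221 in oxamate+lactate, 241 in oxamate and 192 in control. For oxamate+lactate against oxamate the 4 list medians lay between -0.10 and -0.05.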

How the data were processed

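Jurkat RNA-seq libraries, 1 per condition, were grouped by their treatment label. The authors deposited 1 table called normalized counts. Its values are whole numbers, so each was taken as a score that the authors had normalized and rounded, and no count model was fitted. The submitters' processing notes name FastQC 0.11.9, STAR 2.7.1a and HTSeq 0.11.2, and hg19 as the build, without saying what each was used for. Annotation and normalization method: not given in the sources used here. ERCC rows (36) were kept apart from genes.

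For each pair of libraries log2((value + 1)/(value + 1)) was computed over all genes past the floor, with Python 3.11.15, numpy 2.4.6 and pandas 2.3.3. No test was made. The computation was tested on simulated data. The members, the lists and the counting sizes of 1.2-fold and 1.5-fold were chosen with earlier results of these data known. All members could be named. Of each further list, the 2 highest and 2 lowest in oxamate against control are named, except 1 that is not reported here, and E2F1 and CHTF18 were named after their values were seen. Transcript length, GC content and exon overlap were taken from GENCODE 29 (GRCh38, not the build of the files), by gene symbol, for 87.3% of the genes over the floor and all 54 members. Alternatives were the pseudocount, the floor, the scaling, the mean in place of the median, and removal of the GC and length trend.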

Additional observations from a re-analysis of the deposited data

How the results depend on the processing

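The count of replication genes below the median of all genes cannot change under a scaling or centring, and stayed within 1.5 times its value in each comparison under the other alternatives run. For oxamate against control, the genes at least 1.2-fold lower numbered 9 as deposited, 18 with equal sums over genes and 17 with centring on the median of all genes. Those at least 1.2-fold higher numbered 5 as deposited, 0 under both of these, and 3 without the trend on GC content and length. For oxamate+lactate against oxamate, the median changed sign to 0.01 with equal sums over genes. The genes at least 1.2-fold lower there numbered 2 as deposited, 0 with equal sums, 1 with equal ERCC sums and 1 with centring. For oxamate+lactate against control, the lower genes numbered 15 as deposited and 9 with equal ERCC sums. These scalings shift all genes of a library by 1 factor. Single members moved by more than the SD of the ERCC ratios in 11 cases, all for oxamate against control once the trend on GC content and length was removed, and no member past 1.2-fold changed sign. No paired analysis was possible because each condition has 1 library. The number of reads is unknown, and 1 library per condition limits every value.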
